A study of Drosophila melanogaster with 2 samples.

Results

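Among the binding sites of the fly protein CG17612, those described here lie at divergent promoters, where 2 genes are transcribed away from a shared stretch of DNA. A peak was counted as divergent when its summit, the base of highest signal, lay within 500 bp of annotated transcript start sites of at least 2 different genes on opposite strands. This held for 348 of the 2042 peaks on the assembled chromosome arms, out of 2094 in the whole list. Another 648 had start sites of genes in 1 direction only within that distance and are called one-direction promoter peaks, and 1046 lay away from start sites. The 348 were 34.9% of the 996 promoter peaks (95% Wilson interval 32.0 to 38.0).

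The peaks come from chromatin immunoprecipitation and sequencing (ChIP-seq) of whole Drosophila melanogaster embryos aged 0 to 24 hours, a collection that spans nearly all of embryonic development and all its cell types. All embryos carried a transgenic insertion encoding CG17612 joined to eGFP, and anti-GFP antibody was used, although the antibody field names CG17612. The samples were 2 biological replicates of this single genotype, so no treated or mutant group was compared, and a control experiment named with them was not analysed here. The main list was the conservative one, made from both replicates together and thresholded on the irreproducible discovery rate (IDR), a measure of how well peaks rank alike in replicates. The authors deposited lists of peaks, each with a score of unstated scale, and the number of reads behind them is unknown.

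In the compact fly genome many neighbouring genes stand head to head, with transcription starting from both sides of a short stretch that holds the regulatory DNA of both. Such pairs are known to be rich in broadly expressed genes, and core promoter elements such as the DNA replication-related element (DRE), bound by DREF, and the elements called Motif 1 and Motif 7 are known from promoters of that kind. Insulator proteins such as BEAF-32 are also known to sit between head-to-head genes. A peak there belongs to both genes at once, and ChIP-seq does not say which of them, if either, it bears on.

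The DNA under the strongest of these peaks was rich in A and T. The sequences below span 50 bp on each side of the summit at the 4 highest-scoring divergent peaks off the right arm of chromosome 2, read on the plus strand of the Release 6 (dm6) genome, with runs of at least 6 bases made of A and T alone in capitals. They lie at chr3R:15229483-15229583, chr3R:29736805-29736905, chr3R:27636126-27636226 and chr3L:5139428-5139528.
Art3 and mRpS10: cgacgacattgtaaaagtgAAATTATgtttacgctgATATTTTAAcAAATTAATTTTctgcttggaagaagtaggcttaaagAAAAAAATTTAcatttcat
CG7601 and CIA30: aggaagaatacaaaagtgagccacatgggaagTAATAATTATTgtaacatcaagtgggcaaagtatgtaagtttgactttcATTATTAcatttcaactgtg
CG5611 and Mtl: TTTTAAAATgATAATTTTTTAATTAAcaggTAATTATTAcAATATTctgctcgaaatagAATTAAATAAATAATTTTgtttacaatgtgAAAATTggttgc
Tcs5 and CHMP2B: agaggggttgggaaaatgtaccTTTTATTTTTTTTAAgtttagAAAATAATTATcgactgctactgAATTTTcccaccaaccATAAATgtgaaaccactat
These windows held 4, 2, 6 and 4 such runs, and A+T made up 73.3%, 67.3%, 81.2% and 68.3% of their bases. Core promoter and insulator words were searched for in every window, on both strands. For 3 of these words the 2 highest-scoring windows off the same arm are shown, with the word in capitals. Motif 7 was searched as CANCNCTA, where N is any base, and the DRE as TATCGATA. The core of the site of the insulator protein Su(Hw) was searched as TGCATANTT. The windows lie at chr3L:6488576-6488676 and chr3R:24876675-24876775 for Motif 7, at chr3R:11216267-11216367 and chr3L:22741641-22741741 for the DRE, and at chr3R:24193582-24193682 and chr3L:13513160-13513260 for the Su(Hw) core.
CG10147 and Bulli, Motif 7: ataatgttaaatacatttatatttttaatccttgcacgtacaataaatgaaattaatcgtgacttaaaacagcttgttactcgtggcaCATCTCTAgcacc
CG3744 and CG11089, Motif 7: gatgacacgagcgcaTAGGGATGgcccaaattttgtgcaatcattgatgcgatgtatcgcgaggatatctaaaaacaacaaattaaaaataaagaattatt
RpS25 and CG4820, DRE: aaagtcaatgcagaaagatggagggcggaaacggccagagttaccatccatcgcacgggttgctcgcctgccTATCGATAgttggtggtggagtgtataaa
CG7369, DRE: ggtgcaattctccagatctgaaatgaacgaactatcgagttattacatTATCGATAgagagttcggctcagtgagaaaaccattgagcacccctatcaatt
SMC6 and CG6204, Su(Hw) core: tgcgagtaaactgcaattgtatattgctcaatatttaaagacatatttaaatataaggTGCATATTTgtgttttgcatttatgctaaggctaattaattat
Vps36 and Liprin-beta, Su(Hw) core: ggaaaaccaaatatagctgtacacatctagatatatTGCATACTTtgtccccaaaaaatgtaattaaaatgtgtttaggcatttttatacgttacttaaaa
A match to such a word describes the letters and does not show that the factor binds there.

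The highest-scoring divergent peaks stood at pairs whose genes have varied cellular roles, with a mitochondrial protein gene in several. The peak at chr3R:15229408-15229665 scored 822 (405 in replicate 1 and 411 in replicate 2) and lay between Art3, an arginine methyltransferase gene, and mRpS10, which encodes a protein of the small subunit of the mitochondrial ribosome. Its summit was 125 bp from one start site and 132 bp from the other. At chr3R:29736730-29736973 the peak scored 822 as well, at CG7601 and CIA30, which helps to assemble respiratory complex I (384 and 429), and the summit was 110 bp from each of the start sites. The CG5611 and Mtl peak (Mtl is a Rac-like GTPase) scored 812 (442 and 364), and that of CHMP2B, an ESCRT-III subunit, and Tcs5, which takes part in modifying tRNA, scored 747 (374 and 382). The fifth, between mRpS23, of the same mitochondrial subunit as mRpS10, and CenG1A, scored 723 (377 and 348). Each replicate score, here and below, was read from that replicate's ranked list at the strongest peak that overlaps. In these 5 peaks the replicate scores lay close together, and neither replicate had the higher one throughout.

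Beyond these 5, the 20 strongest included genes of transcription, protein synthesis and membrane traffic. CG13390 and CG17294 shared a peak of 720 (344 and 372), and eIF6, a ribosome biogenesis factor, shared one of 697 (373 and 331) with the antisense transcript asRNA:CR45928. Chro, which encodes the chromatin protein Chromator, shared a peak of 693 (352 and 353) with the TFIIH subunit gene Ssl1, of the general transcription machinery. The gene brm, for the ATPase of the Brahma chromatin remodelling complex, was paired with Arl1, a small GTPase of the Golgi (488, with 282 and 205). Elp5, of the Elongator complex that modifies tRNA, was paired with CG1275 (591, with 301 and 286), and mRpL23 with CG9004 (576, with 291 and 280). Pex11ab, a peroxisomal protein gene, was paired with CG8320 (599, with 323 and 270) and Atat, a tubulin acetyltransferase gene, with Shc, a signalling adaptor (545, with 285 and 253). The last of the 20 lay between fws, a subunit of the Golgi COG complex, and Lamtor3, of the Ragulator complex (412, with 223 and 202). The remaining 6 were Mnat9 with CG1792 (515), CG3437 with CG3552 (501), CG5757 with CG5098 (457), Mkk4, a stress-pathway kinase, with SLIRP2 (436), Pdrg1 with Pal1 (429) and CG7183 with CG7988 (416). All 20 were in the thresholded lists of both replicates, 11 of them had the higher score in replicate 1, and in 15 the summit lay between the start sites. Only 1 of the 20, that of eIF6, had a non-coding gene in the pair.

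Divergent peaks had scores slightly above those of other promoter peaks and were found in both replicates more often than peaks as a whole. Their median score was 111 (quartiles 82.1 and 171, range 2.60 to 822), against 104 for one-direction promoter peaks, 91.5 for peaks away from start sites and 98.2 for all 2042. In the replicates' own lists the medians of divergent and one-direction peaks were closer, at 73.8 and 71.4 in replicate 1 and 69.1 and 67.5 in replicate 2. Among the 100 highest peaks, 25 were divergent and 41 one-direction. Divergent peaks made up 22.8% of the highest 500 and 17% of all, and one-direction promoter peaks 37.8% and 31.7%, so both classes had a larger share among strong peaks. Thresholded peaks of replicate 1 overlapped 235 of the 348 divergent peaks (67.5%, 62.4 to 72.2), against 54.9% of all 2042, and those of replicate 2 overlapped 209 (60.1%, 54.8 to 65.1), against 57.0%. Both replicates had a thresholded peak at 175 (50.3%, 45.1 to 55.5), against 41.2% of all peaks and 47.7% of one-direction promoter peaks. Replicate 1 alone had one at 60 and replicate 2 alone at 34, whereas among one-direction promoter peaks the counts were 88 and 105. Neither replicate had one at 79 divergent peaks (22.7%, 18.6 to 27.4), against 22.5% of one-direction promoter peaks and 29.3% of all. These are differences between classes of peaks within 1 genotype and were not tested. Neighbouring peaks are not independent, and intervals cover counting error only.

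**Figure D1:**
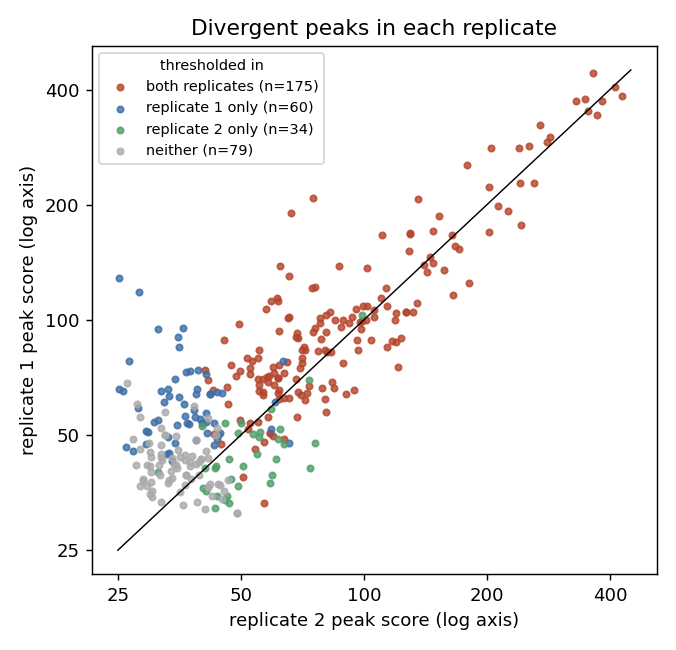
Peak scores of the divergent peaks in the ranked list of replicate 1 (vertical) against replicate 2 (horizontal), both on log axes, 1 point per peak, coloured by the replicates whose thresholded list held it, with the line of equal scores. The strongest peaks lie close to the line, and the 17 more than 2-fold apart all lie above it, higher in replicate 1.

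A ranked, unthresholded peak of both replicates lay at 346 of the 348. The exceptions, that of skd and Pdss2 among them, had no overlapping ranked peak in replicate 2. Median scores of the 346 were 64.2 in replicate 1 (31.2 to 442) and 53.4 in replicate 2 (25.1 to 429), with a Spearman rho of 0.725 across peaks, against 0.643 over all peaks with both. Score was higher in replicate 1 at 236 of 348 (67.8%), against 63.7% of all peaks. The 2 lists were not put on a common scale. The median log2 ratio of replicate 1 to replicate 2 was 0.195, against 0.142 over all peaks. More than 2-fold differences occurred at 17 peaks, all higher in replicate 1. The widest was at CG3698 and tzn (129 in replicate 1 and 25.1 in replicate 2), followed by RpL14, of the large ribosomal subunit, with Nelf-E, a subunit of the negative elongation factor (118 and 28.2). Rack1, a scaffold on the ribosome, with mts, the catalytic subunit of protein phosphatase 2A, had 94.7 and 31.4, and RpL28 with the initiation factor eIF1 had 77.9 and 26.6. Ribosomal protein genes were at 6 of the 17 and at 14 of the other 329. The 17 include both of the overlapping peaks of SH3PX1 and vsg, which share a replicate 1 score of 65.1. The median A+T content within 50 bp of the summit was 57.4% in the 17 and 69.3% in the other 329. Over all 346, however, A+T content was only weakly related to the ratio of replicate 1 to replicate 2 (Spearman rho −0.182, and −0.169 in peaks away from start sites). The largest difference the other way was at lncRNA:CR45650 and CG13631 (40.9 in replicate 1 and 73.7 in replicate 2).

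Head-to-head start sites carried a peak more often than lone start sites did. Annotated genes on the arms numbered 18277, of which 7.24% had a summit no more than 500 bp from a start site, and 711 of them had one at a divergent peak. A list of all head-to-head promoters was made, with a minus-strand start site at or left of a plus-strand one of another gene, at most 1000 bp apart and each gene in 1 pair. Of its 2993 pairs, 323 (10.8%, 9.73 to 12) had a summit within 500 bp of both start sites. To set pairs beside lone genes in windows of the same width, summits within 250 bp of the pair's midpoint were counted against summits within 250 bp of the outermost start site of genes with no opposite-strand neighbour. Of the pairs 320 (10.7%, 9.63 to 11.8) had one, against 260 of 11329 such genes (2.29%, 2.03 to 2.59). Counted within 500 bp of any of their start sites, 455 of those genes had one (4.02%, 3.67 to 4.39), to be set beside the 10.8% of pairs. In the 250 bp windows the shares of pairs and lone genes were 8.42% and 1.68% in the list of replicate 1 and 7.22% and 1.41% in that of replicate 2. With protein-coding genes alone they were 12.2% (296 of 2423) and 2.87% (253 of 8827) in these windows. Within 500 bp they were 8.45% and 2.86% in replicate 1, 7.15% and 2.85% in replicate 2, and 12.7% and 4.97% with protein-coding genes. A pair has 2 start sites where a lone gene has at least 1, but at gaps above about 500 bp the window at the midpoint reaches neither. Levels of expression were not measured here, and the difference was not tested.

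The share of head-to-head promoters with a peak depended on the gap between the start sites and was highest at 201 to 300 bp. In that class 108 of 590 pairs (18.3%, 15.4 to 21.6) had a summit within 250 bp of the midpoint. Pairs over 100 and up to 200 bp apart had 29 of 451 (6.43%, 4.51 to 9.08), and those at most 100 bp apart 44 of 487 (9.03%, 6.80 to 11.9). Wider gaps had falling shares, at 13.8% for 301 to 400 bp, 12% for 401 to 500 bp, 8.16% for 501 to 600 bp, 6.41% for 601 to 800 bp and 2.63% for 801 to 1000 bp. At gaps above about 500 bp the 250 bp window no longer reaches the start sites. Summits close to a start site then go uncounted, so the window itself lowers the shares at the widest gaps. Both replicates had their highest share at 201 to 300 bp (14.7% in replicate 1 and 12.5% in replicate 2) and a dip in the class just below it (5.76% and 3.99%).

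**Figure D2:**
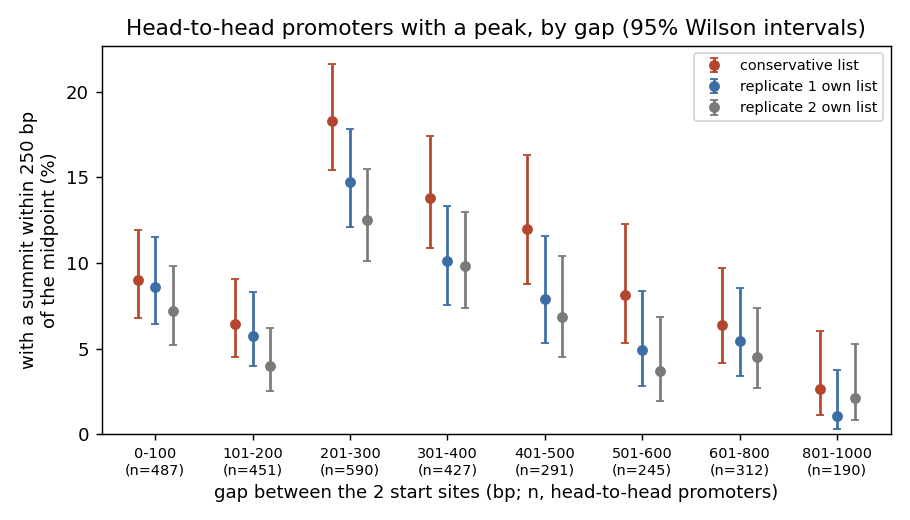
Share of head-to-head promoters with a peak summit within 250 bp of the midpoint (vertical, percent) by the gap between the start sites (horizontal, bp), for the conservative list and for each replicate's own list. Points are shares, bars are 95% Wilson intervals, and all 3 lists have their highest share at 201 to 300 bp. At gaps above about 500 bp the window no longer reaches the start sites, which lowers the shares there.

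Summits lay mostly between the start sites of the pair. For gaps over 500 bp the 500 bp limit itself leaves no other place, so the 38 head-to-head peaks with such gaps are no finding. The start sites used for each peak were the minus-strand and plus-strand ones of different genes that lay closest to the summit. In 336 of the 348 peaks the pair was head to head, and in 12 the transcripts overlapped at their starts. The summit fell between the start sites in 277 (79.6%, 75.1 to 83.5), a median of 62.8 bp from the midpoint of a median gap of 278 bp over all 348. With gaps of at most 500 bp it did so in 239 of 298 (80.2%, 75.3 to 84.3), where the limit still favours such places more as the gap widens. The nearer start site was a median of 87.0 bp away and the farther 204 bp. The nearer start site was the minus-strand one in 168 of 348. The share differed with the gap. Summits were between the start sites in 109 of 116 peaks with gaps of 201 to 300 bp (94.0%), a median of 37.0 bp from the midpoint, but in 5 of 39 with gaps of at most 100 bp (12.8%).

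Measured from each start site, summits lay most often 100 to 149 bp upstream. Of the 696 start sites of the 348 pairs, 160 (23.0%) had the summit that far upstream, 113 (16.2%) at 50 to 99 bp, 97 (13.9%) at 150 to 199 bp and 57 (8.19%) at 0 to 49 bp. Taking only the nearer start site of each pair, the same 4 classes, in that order, held 26.1%, 25%, 7.76% and 15.8% of 348, with the first and second nearly equal, against 14.2%, 10%, 13.9% and 7.87% of 648 for the nearest start site of one-direction promoter peaks. At least 1 start site of the pair lay 100 to 149 bp from the summit in this direction at 135 of 348 divergent peaks (38.8%, 33.8 to 44.0). The strongest peaks showed this most. In 4 classes of 87 peaks each, from the highest scores to the lowest, the counts were 52, 30, 27 and 26. In the highest of 4 such classes in each replicate's own list the count was 41 of 65 in replicate 1 (63.1%) and 36 of 56 in replicate 2 (64.3%), against 42.8% and 44.1% of all divergent peaks there. The pairs of Art3 with mRpS10, CG7601 with CIA30 and fws with Lamtor3 had both start sites in this range, as did 25 peaks in all. At eIF6, Pex11ab, Elp5 and mRpL23, pairs with gaps of 29 to 50 bp, the summit was not between the start sites, and lay 66 to 138 bp from each.

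**Figure D3:**
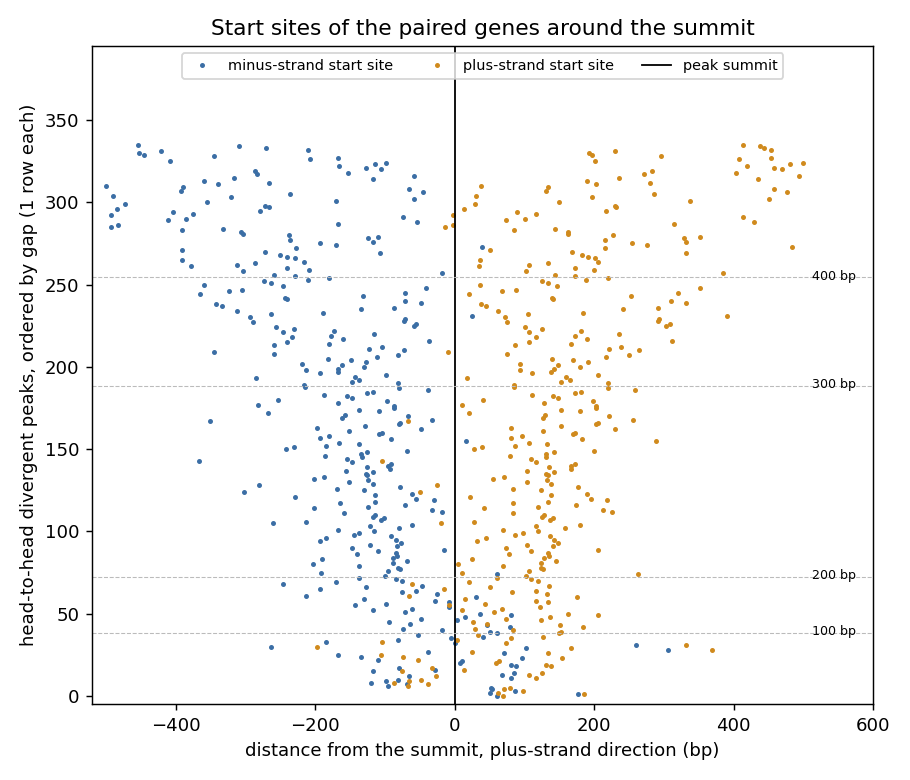
Positions of the minus-strand and plus-strand start sites around the summit (horizontal, bp in the plus-strand direction) for the 336 head-to-head divergent peaks, 1 row each, ordered by gap from the smallest at the bottom. Dashed lines mark gaps of 100, 200, 300 and 400 bp, and at gaps of 201 to 300 bp the start sites stand on both sides of the summit in 109 of 116 peaks.

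By annotation, 215 summits (61.8%) were outside genes, 72 (20.7%) in a 5′ UTR, 47 (13.5%) in an intron, 10 in a non-coding exon, 3 in a coding exon and 1 in a 3′ UTR. The 500 bp limit cut a continuous range of distances. Of the members 23 had their farther start site at 451 to 500 bp (scores 8.15 to 191, median 84.5), and 15 further peaks had it at 501 to 550 bp (79.2 to 570, median 114). The 348 peaks marked 338 distinct pairs, since 10 pairs had 2 peaks, which overlapped each other in every case. In each of the 10 the weaker peak had a pooled score of 22.0 or less, below both replicate scores. An example is Vps36, an ESCRT-II subunit, with Liprin-beta, where the peaks scored 114 and 2.60 and shared replicate scores of 50.6 and 58.9. A further 26 peaks had start sites of more than 2 genes within 500 bp.

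Almost all divergent peaks joined a pair of protein-coding genes. Both genes were protein-coding at 322 peaks (92.5%, 89.3 to 94.9), with a median score of 114, and 1 was at the other 26, with a median of 82.3. Of the head-to-head promoters in the annotation, 304 of 2405 with both genes protein-coding had a peak (12.6%), 19 of 479 with 1 (3.97%) and 0 of 109 with none, which allows a share of up to 2.75%. The 26 mixed peaks stood at 25 distinct pairs, and the pair held an antisense or long non-coding RNA gene at 21 of the peaks, a tRNA gene at 3 and a pseudogene at 2. The summit was nearer to the coding gene in 18 of them. The strongest after eIF6 were brwl with lncRNA:CR44149 (score 320, with 156 and 167 in replicates 1 and 2), Reg-5 with asRNA:CR43257 (221, with 114 and 110) and CG8036 with tRNA:Tyr-GTA-1-8 (213, with 87.6 and 120). BEAF-32, the insulator protein gene, was paired with asRNA:CR42254 (75.9, with 44.7 and 31.9).

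Head-to-head promoters on the X chromosome carried a peak less often than those on the large autosome arms. On X 28 of 465 had one (6.02%, 4.20 to 8.57), against 11.4% on 2L, 10.2% on 2R, 12.7% on 3L and 12.7% on 3R. X was the lowest of these 5 arms in both replicates as well (5.16% in replicate 1 and 4.09% in replicate 2), where the others ranged from 7.96% to 10.1% and from 5.73% to 8.68%. On chromosome 4 the count was 0 of 22, which allows up to 13.6%. Scores of the 32 divergent peaks on X had a median of 105, near the 111 of all.

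Ribosomal protein genes were at divergent peaks in a larger share than all head-to-head genes, and more so in replicate 1 than in replicate 2. Their share was the highest of the 20 gene lists examined, but those of tRNA modification, insulator and RNA polymerase I and III genes lay inside its interval. The lists were not exhaustive, and each share, count and leading gene here and below is that of the list alone. The larger share of ribosomal protein genes was not particular to divergent peaks. At promoter peaks of any kind were 33 of all 86, 20 of them at divergent ones. Over all 18277 genes the number was 1324 (7.24%), with 711 at divergent ones. Of the 54 ribosomal protein genes in head-to-head pairs, 20 (37.0%, 25.4 to 50.4) were at a divergent peak, against 669 of all 5986 head-to-head genes (11.2%). The highest were RpL7 with Ripalpha (282, with 208 in replicate 1 and 75 in replicate 2), RpS27 with Nup37, a nuclear pore gene (265, with 190 and 66.3), RpL34b with CG8132 (224, with 138 and 86.8) and RpL32 with CG7943 (166, with 107 and 57.6). The score was higher in replicate 1 at 19 of the 20, RpL23 being the exception (39.2 and 39.5), against 236 of all 348. Median scores were 73.9 in replicate 1 and 40.2 in replicate 2. In the replicates' own thresholded lists, 18 of the 54 were at a divergent peak in replicate 1 (33.3%) and 10 in replicate 2 (18.5%, 10.4 to 30.8), against 8.55% and 7.30% of all head-to-head genes. In replicate 2 the shares of tRNA modification genes (27.8%) and RNA polymerase II genes (19.2%) were higher than this. These 20 peaks had a median A+T content of 51.0%, against 68.3% in all 348. The part of base composition or of a replicate's library in this difference was not tested.

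Mitochondrial ribosomal protein genes, which are nuclear genes for the ribosome inside mitochondria, had fewer peaks but stronger ones. Of 56 in head-to-head pairs 9 were at a divergent peak (16.1%, 8.69 to 27.8), an interval that holds the 11.2% of all head-to-head genes. Their median score was 294, against 111 over all members. Scores were 822 at mRpS10, 723 at mRpS23, 576 at mRpL23, 327 at mRpL20 (167 and 164 in replicates 1 and 2, paired with Icmt), 294 at mRpS2 and 206 at mRpL24, and from 66.6 to 84.5 at mRpL32, mRpL34 and mRpS24. In the own lists of replicates 1 and 2, 8 and 7 genes of this kind were at a divergent peak (14.3% and 12.5%), against 8.55% and 7.30% of all head-to-head genes. Oxidative phosphorylation genes had 7 of 49 (14.3%, 7.10 to 26.7, which also holds 11.2%), led by ND-ASHI of respiratory complex I, paired with the fumarase gene Fum1 (236, with 105 and 132). ND-24 and ND-MWFE of the same complex had 152 and 143, and levy, a subunit of complex IV, 134. Replicates 1 and 2 had 6 and 4 of these genes in their own lists. The assembly and import list had 2 of 9, CIA30 and Tom7, a subunit of the import channel of the outer membrane (72.6).

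Of the genes that make or modify other parts of the translation apparatus, 6 of 18 in the tRNA modification list were at a divergent peak (33.3%, 16.3 to 56.3). They were Tcs5, Elp5, Trmt6 (282, with 139 and 140 in replicates 1 and 2), Elp6 (143, with 55.7 and 68.7), Trmt61 (102) and Elp4 (85.5), and each replicate's own list had 5. Elp4, Elp5 and Elp6 are subunits of Elongator, and Trmt6 and Trmt61 form 1 tRNA methyltransferase. Dus2 (144), Dus3 (137) and Dtwd2 (112), tRNA modification genes outside the list, were also at divergent peaks. The list of aminoacyl-tRNA synthetase genes had 4 of 22 (18.2%, 7.31 to 38.5), SerRS (150), ThrRS (110), AspRS (82.5) and IleRS, between ThrRS and AspRS in score. GluProRS, a synthetase gene outside that list, had a peak of 177 with AP-1sigma (95.1 and 75.9 in replicates 1 and 2). The replicates' own lists had 2 and 1 of these 22. Translation factors had 4 of 31 (12.9%, 5.13 to 28.9), with eIF6, eIF1 (98.9), eRF1 (85.0) and eIF3h (70.5), and 2 in each replicate's own list. The intervals of the synthetase and translation factor lists hold the 11.2% of all head-to-head genes, and that of the tRNA modification list lies above it. The tRNA genes themselves had 3 of 82 (3.66%, 1.25 to 10.2), with 4 and 1 in the replicates' own lists.

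Among genes of transcription and chromatin, 13 of 52 for RNA polymerase II, its general factors and the mediator (25%, 15.2 to 38.2, with 11.2% over all head-to-head genes) were at a divergent peak. Each replicate's own list had 10. Beyond Ssl1 they included Polr2B, the second largest polymerase subunit, with 140up (211, with 109 and 102), Taf5 of TFIID with Pex6 (181) and mrn, another TFIIH subunit, with CG12301 (171, with 83.3 and 70.7). The list of RNA polymerase I and III genes had 3 of 11, led by Brf (138). It had 1 in the own list of replicate 1 and 0 in that of replicate 2, which allows up to 27.3%. Bdp1, an RNA polymerase III factor gene outside this list, had a peak of 200 with CG6565, thresholded in both replicates (89.6 and 123). The list of insulator and architectural protein genes had 4 of 14 (28.6%, 11.7 to 54.6). They were Chro, Cp190, an insulator cofactor (231, with 104 and 120), Dref, paired with RpL13 (131, with 90.4 and 35.0), and BEAF-32. Outside the list, pre-mod(mdg4)-E and pre-mod(mdg4)-Y, annotated at the locus of the insulator gene mod(mdg4), shared a peak of 175 (98.1 and 78.3). Polycomb and Trithorax group genes had 4 of 16 (25%, 10.2 to 49.5), namely brm, E(z), the histone methyltransferase of Polycomb repression (165, with 102 and 65.6), skd, a mediator subunit (93.2), and Sfmbt (88.3). Replicates 1 and 2 had 3 and 2 insulator genes in their own lists, and 4 and 2 Polycomb and Trithorax genes. Small lists such as these have wide intervals, and those of RNA polymerase I and III genes (9.75 to 56.6) and of Polycomb and Trithorax genes hold 11.2%.

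The shares of the next lists, from vesicle traffic to the proteasome, lay around the 11.2% of all head-to-head genes, which is inside the 95% interval of each. Genes of ESCRT and vesicle traffic had 11 of 67 (16.4%, 9.42 to 27.1), with alphaCOP, a coat protein (318, with 171 and 148 in replicates 1 and 2), and Sec6, of the exocyst (146, with 76.2 and 62.1), after CHMP2B and Arl1. The cell cycle list had 3 of 20 (15.0%), namely SMC2, a condensin subunit (125), mts (122) and Dp, the partner of E2F (103). Cell cycle genes outside this list were also at divergent peaks. Among them pds5 (349), Kmn2 (292) and SAK scored above all 3, and Cdc16 and SA1 had peaks as well. DNA replication and repair had 4 of 30 (13.3%), led by PolD2, a subunit of DNA polymerase delta (295, with 146 and 145). Heat shock and chaperone genes had 3 of 22 (13.6%), led by Hsc70-4 (123). The spliceosome list had 3 of 32 (9.38%), led by SNRPG (181), and the proteasome list 2 of 26 (7.69%), Rpn3 (173) and Rpt5 (94.1). Phf5a, a spliceosome gene outside the list, had a peak of 280 with CG31638 (116 and 165). Of these 5 lists, the counts in the own lists of replicates 1 and 2 were 4 and 2 for the cell cycle, 4 and 3 for DNA replication and repair, 2 and 2 for heat shock, 3 and 3 for the spliceosome and 2 and 1 for the proteasome. Antisense and long non-coding RNA genes had 16 of 524 (3.05%, 1.89 to 4.90). None of the 7 snoRNA genes in head-to-head pairs was at a divergent peak, and 2 others lay at the peaks of RpL3 and RpL28. Since 1 peak names both genes of a pair, lists share peaks, as with Dref and RpL13 or Trmt61 and RpL34a.

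A+T content peaked at the summit of divergent peaks and fell off to both sides. Within 50 bp on each side of the summit its median was 68.3% (quartiles 59.4 and 74.3), against 66.3% at one-direction promoter peaks, 64.4% at peaks away from start sites and 56.4% at all start sites. Midpoints of head-to-head promoters with a peak had a median of 71.3% and those without one 66.3%. In steps of 25 bp the mean was 67.1% at the summit of divergent peaks, and 50% and 50.6% at 500 bp on either side. A+T content was higher in stronger peaks, with medians of 72.3%, 68.3%, 66.3% and 66.3% in the 4 classes of 87 from the highest scores to the lowest.

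**Figure D4:**
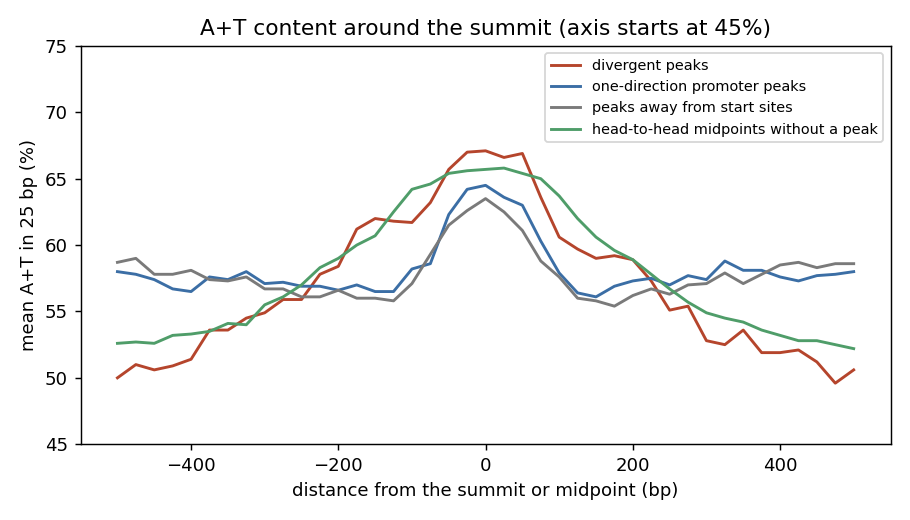
Mean A+T content (vertical, percent, in 25 bp steps, axis from 45%) against distance from the summit, or from the midpoint for promoters without a peak (horizontal, bp in the plus-strand direction). At the centre the mean was 67.1% in divergent peaks, 64.5% in one-direction promoter peaks, 63.5% in peaks away from start sites and 65.7% at head-to-head midpoints without a peak.

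None of the consensus words searched for was present at most divergent summits. The TATA word TATAAA was the most frequent, in 24.7% of divergent windows (20.5 to 29.5), against 21.8% at one-direction promoter peaks, 22.5% at head-to-head midpoints without a peak and 15.0% of windows at all start sites. Motif 7 was in 35 of 348 (10.1%, 7.32 to 13.7), against 4.32% at one-direction promoter peaks, 5.62% at midpoints without a peak and 6.70% at all start sites. The share was higher in replicate 1, at 10.9% (28 of 257) in its own list and 4.95% (11 of 222) in that of replicate 2, against 4.75% and 3.23% of one-direction promoter peaks there. In the 4 score classes from the highest to the lowest, Motif 7 was in 2, 10, 11 and 12 of 87. The DRE was in 15 (4.31%, 2.63 to 6.99), against 1.08% at one-direction promoter peaks, 4.53% at midpoints without a peak and 3.75% at all start sites. It was in 0, 3, 5 and 7 of 87 in the same classes, and in 4.28% and 1.35% of the divergent peaks in the lists of replicates 1 and 2. Its part CGATA, which every DRE match also contains, was in 18.4% (14.7 to 22.8), against 15.0%, 23.3% and 21.4% in the same 3 sets. Peaks with the DRE had a median score of 85.0, where peaks without it had 114, and 3 of the 15 were in the thresholded lists of both replicates.

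Words of other factors were rare or not found at divergent summits. Motif 1, searched as GGTCACAC, was in 1 window (0.287%), against 1.08% at one-direction promoter peaks, 2.62% at head-to-head midpoints without a peak and 3.88% at all start sites. The Su(Hw) core was in 4 (1.15%, 0.448 to 2.92), near the 0.936% at head-to-head midpoints without a peak. It was in 1.85% at one-direction promoter peaks, 5.45% at peaks away from start sites and 0.430% at all start sites. The E-box word CAGCTG was in 4.60%, against 3.24% at one-direction promoter peaks and 7.80% at all start sites. The Pho word GCCATNTT was in 1.72%, against 3.24% and 1.98%. GAGAGAG of the GAGA factor, the CTCF core AGNTGGCGC and the Zelda word CAGGTAG were each in 0 of 348, which allows up to 0.862%. Start sites held these 3 words in 1.55%, 0.346% and 0.468% of windows, and one-direction promoter peaks in 1.23%, 1.54% and 0 of 648. At midpoints of head-to-head promoters with a peak, Motif 1 was in 1.24% and the E-box word in 6.81%, where midpoints without one had 2.62% and 6.18%.

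**Figure D5:**
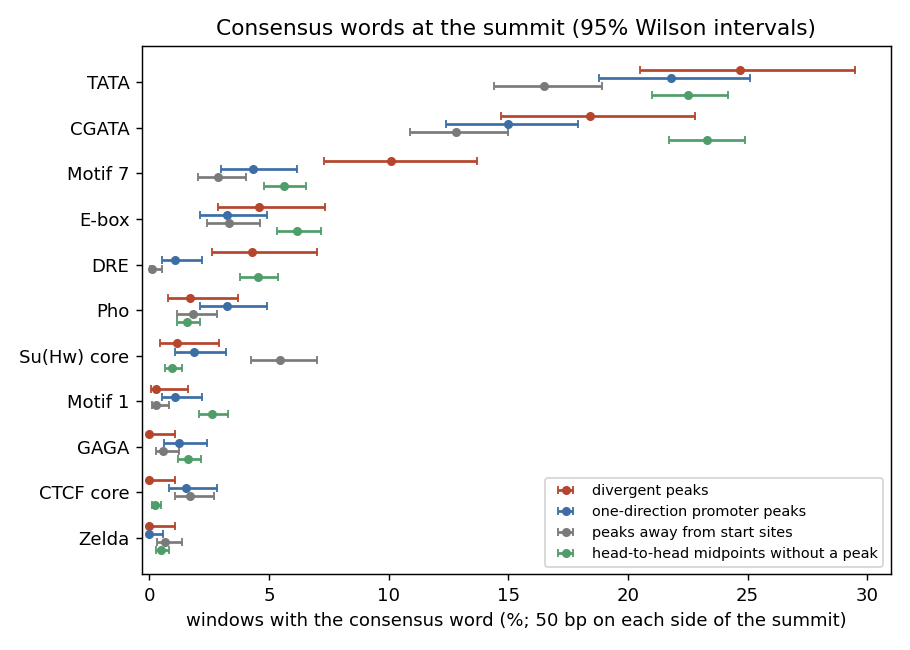
Share of windows, reaching 50 bp to either side of the summit, that hold each consensus word (horizontal, percent) for divergent peaks, one-direction promoter peaks, peaks away from start sites and head-to-head midpoints without a peak. Points are shares and bars 95% Wilson intervals, and Motif 7 stands at 10.1% in divergent peaks, against 2.87% to 5.62% in the other 3 sets. Windows without a peak are centred on midpoints, and midpoints with a peak, not drawn, held Motif 7 in 8.67%.

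Words of 8 bases gave no single strong element either. When all such words were ranked on the left arms of chromosomes 2 and 3 by their excess at divergent summits over midpoints of head-to-head promoters without a peak, 10 of the first 20 were made of A and T alone. The first, AAATAATT, was in 13.9% of divergent windows and 5.77% of the others on those arms, and in 7.61% and 4.99% on the remaining arms. Of the 20 words, 13 had a higher share at divergent summits on the remaining arms. The word CCAACTTC, in 6 of 151 divergent windows on the first arms, was in 0 of 197 on the others.

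CG17612 itself, on the minus strand of 2L, was not at a divergent peak and has no head-to-head partner. The nearest summit to its start sites was 1065 bp away and had a score of 78.1.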

How the data were processed

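Peak lists of 2 biological replicates, 1 group, were used. Per the deposited description files, lists are on dm6, each replicate's list comes from that replicate's alignments, and the pooled lists come from those of both, with 1 further alignment named for all lists. Aligner and peak caller stand as not given in the sources used here, with no version. Column 7 of the deposited lists, the signal value, served as the score, whose scale is not stated. Classes of peaks were compared within a list. Scores of different lists were also set side by side, without being put on a common scale. The summit is the authors' offset from the peak start. The 2 ranked pooled lists were not used. No read counts were in the lists, so depth is unknown.

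Start sites came from the Ensembl release 115 annotation of BDGP 6.54 without transposable elements (24111 start sites, 13968 protein-coding genes) and sequence from the RefSeq Release 6 genome. Shares are given with 95% Wilson intervals, and a share of 0 with the limit of 3 counts. No test was run over peaks, which are not replicates. Peaks overlap from 1 bp. Motif windows held 50 bp on each side of the summit. The pair at a peak is the one whose farther start site is closest. The classifier was tested on simulated data. Python 3.11.15, pandas 2.3.3, numpy 2.4.6, scipy 1.17.1 and matplotlib 3.10.9 were used.

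The genes named were the pairs at the 20 highest divergent peaks, up to 4 of each gene list by score, the 2 highest off 2R for each printed motif, and CG17612. Pairs named for replicate differences, the mixed pairs, and the further members of short lists were chosen after their values were seen. So were the genes named as outside a list. Members and lists were chosen with earlier results of these data known. Gap classes, score classes, A+T profiles, the 250 bp window, upstream distances and the motifs printed were chosen after seeing the data, and so was the background for 8-base words: flanking windows and words of 6 and 7 bases had also been tried, without a clearer element. Alternatives were the list of each replicate by itself, the less strict list, peaks at or above the median score, protein-coding genes alone, start-site distances of 250 and 1000 bp, gaps of at most 500 bp, windows of 100 bp on each side and summit overlap. Leaving out weaker peaks of overlapping pairs was an alternative chosen after seeing the data. The pair at 1 further peak is not reported here by name.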

Additional observations from a re-analysis of the deposited data

How the results depend on the processing

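Of 149 alternative values of 17 quantities, 106 stayed within the interval of the value reported or, for scores, within the spread of the replicates, and 43 moved; the causes were not tested, beyond what each construction sets. No paired analysis was possible because the samples form 1 group. Start-site distances of 250 and 1000 bp gave divergent shares of promoter peaks of 28.2% and 38.4%. The share of head-to-head promoters with a peak was 7.15% to 8.45% without 1 replicate, 6.92% in the upper part of the list by score (from the median up), 7.22% within 250 bp, 13.5% within 1000 bp, 12.7% with protein-coding genes and 13.1% with gaps of at most 500 bp. The median score was 69.1 to 73.8 without 1 replicate, 153 in the upper part of the list by score, 128 within 250 bp and 107 within 1000 bp. The ratio of divergent to one-direction median scores, 1.07, was 1.02 to 1.03 without 1 replicate, 1.09 in the less strict list, 1.00 in the upper part of the list by score, 1.22 within 250 bp, 1.04 within 1000 bp, 1.10 with protein-coding genes and 1.09 without the weaker peaks of overlapping pairs (chosen after seeing the data). The share thresholded in both replicates was 79.6% in the upper part of the list by score and 58.8% within 250 bp, and 68.5% to 79.7% of each replicate's own divergent peaks were in the other's list. Summits lay between the start sites in 74.3% within 1000 bp.

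Motif shares without 1 replicate were 1.35% to 4.28% for the DRE, 14.0% to 16.7% for CGATA, 27.2% to 32.9% for TATA and 4.95% to 10.9% for Motif 7. The upper part had 1.90% for the DRE and 12.8% for CGATA, and the 250 bp distance 6.33% for Motif 7 and 0 for Motif 1. Windows of 100 bp on each side, a wider search, held 10.3% for the DRE, 38.2% for CGATA, 3.74% for Motif 1, 14.1% for the E-box, 3.45% for the Su(Hw) core, 3.74% for Pho, 42.0% for TATA and 23.9% for Motif 7. Scores have no stated scale and no read counts stand behind them, so no error could be put on a single peak beyond its values in the 2 replicates.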
